A study of Mus musculus with 6 samples.

Results

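The 9 genes described here encode the mouse Fcγ receptors (Fcgr1, Fcgr2b, Fcgr3 and Fcgr4), the triggering receptors Trem1, Trem2 and Trem3, and the adaptors FcRγ (Fcer1g) and DAP12 (Tyrobp). They were chosen by their symbols among 36870 distinct symbols in the RNA-seq table, with their values known, because Fcgr1 and Tyrobp moved in opposite directions between control and Tet1/Tet2 siRNA-treated bone marrow mesenchymal stem cells (BMMSCs). The comparison of these 9 genes between the groups is therefore a description and carries no test. All 9 were among the 13266 genes whose mean reached 0.1 RPKM, a read density that allows for the length of the gene and the size of the library.

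BMMSCs are the adherent cells grown out of flushed marrow, here from femurs and tibias of C57BL/6 mice. The control group (3 libraries) received non-targeting siRNA according to the labels, although the sequencing methods call it vehicle, and the other group (3 libraries) received siRNAs against Tet1 and Tet2, which encode enzymes that oxidise methylated cytosine in DNA. The labels give passage 2 for all 6 libraries and the methods passage 1, and no age is given for the marrow donors of these cultures. Neither source says that the 3 libraries of a group came from separate mice or cultures, so p-values measure only the spread between these libraries, which may be technical.

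Fcγ receptors bind the constant part of IgG. In mice the activating receptors FcγRI, FcγRIII and FcγRIV (Fcgr1, Fcgr3 and Fcgr4) signal through FcRγ, a small adaptor with an activation motif (ITAM) that recruits the kinase Syk, whereas FcγRIIb (Fcgr2b) carries its own inhibitory motif (ITIM) and recruits the phosphatase SHIP1 (Inpp5d). The TREM receptors have no signalling motif and pair with DAP12, the other small ITAM adaptor. In bone marrow and its cultures these genes are known as genes of blood-derived cells, among them monocytes, macrophages, neutrophils and osteoclasts, rather than of stromal cells.

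The 6 libraries held the genes of more than 1 cell type. A list of 15 stromal markers, the genes that mark the labelled cell type, had a summed level between 1148 and 1661 RPKM in the control libraries and between 144 and 291 RPKM in the siRNA libraries. In the table Thy1, Lepr and Lum lay under 0.1 RPKM in both groups, and Col1a1 went from 488 ± 144 to 72.1 ± 28.5 RPKM (SD, n = 3). A list of 27 macrophage markers summed to between 13701 and 17357 RPKM in the controls and between 22862 and 26639 RPKM in the siRNA libraries, and none of the 27 stood at the lowest listed value in all libraries. Lyz2 carried most of the difference in that sum, and the other 26 summed to between 10154 and 12344 RPKM and between 13019 and 13958 RPKM. The part of either cell type in the differences below was not tested, and in bulk RNA fewer cells of a type cannot be told apart from less RNA per cell. Tet2 was 3.45 ± 0.785 RPKM in the control group and 0.266 ± 0.0817 RPKM in the siRNA group, and Tet1 was near the lowest listed value in both, at 0.060 ± 0.034 and 0.0040 ± 0.0052 RPKM. Replicates correlated with r from 0.992 to 0.997 across genes, and libraries of different groups with r from 0.949 to 0.969. The estimated depth was 32400000 to 38500000 reads per library. Of the 13266 genes, 29.8% were lower and 14.7% higher in the siRNA group at an adjusted p under 0.05 (limma). That is 3952 lower against 1953 higher, a split that became 3108 against 2697 with median ratio scaling and 2627 against 3607 with quantile normalization.

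The genes lie in 4 regions of GRCm38 (GENCODE M21). Fcgr1 stands alone on chromosome 3 (96282909 to 96293969, minus strand). Fcgr2b (170958617 to 170976547, minus strand), Fcgr4 (171018920 to 171029761, plus strand) and Fcgr3 (171051174 to 171064935, minus strand) follow each other on chromosome 1 with no other protein-coding gene between them. Fcer1g (171229572 to 171234365, minus strand) is 164636 bases beyond Fcgr3. Trem1 (48232768 to 48246924), Trem3 (48247777 to 48258841) and Trem2 (48346401 to 48354147) lie on the plus strand of chromosome 17, with 852 bases between Trem1 and Trem3 and with Treml4, Treml2 and B430306N03Rik between Trem3 and Trem2. Tyrobp is on chromosome 7 (30413760 to 30417585, plus strand), and Hcst, which encodes the related adaptor DAP10, lies on the other strand with its end 126 bases from the end of Tyrobp.

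The RefSeq promoter table (GRCm38.p6) held 7 of the 9 genes, all but Tyrobp and Trem3, and the 250 bases before each start were searched on both strands for 4 motifs picked after the values had been seen. TTCNNNGAA, a motif known from interferon-responsive promoters, was found for 2 of the 7 genes, Fcgr1 and Trem1, and in 7.02% of the 32851 promoters. GAAANNGAA, the core of the interferon-stimulated response element, was found for Fcgr4 only and in 7.13% of all promoters. GAGGAA, the core bound by the myeloid factor PU.1, was found for 5 of the 7 (not for Fcgr2b or Fcer1g) and in 23.3% of all, and TATAAA for none of them and in 12.4% of all. Fcgr1 and Trem1 are shown because their mRNAs were lower in the siRNA group and both windows hold the first motif, and Trem2 because it was higher and does not hold it. Fcer1g was also lower in the siRNA group and does not hold the motif. Each is written 5′ to 3′ in the direction of the gene, ending at the base before the start, with matches in capitals. In Trem1 the matches to TTCNNNGAA and GAGGAA adjoin and share no base.
Fcgr1 (chr3:96293970-96294219, minus strand): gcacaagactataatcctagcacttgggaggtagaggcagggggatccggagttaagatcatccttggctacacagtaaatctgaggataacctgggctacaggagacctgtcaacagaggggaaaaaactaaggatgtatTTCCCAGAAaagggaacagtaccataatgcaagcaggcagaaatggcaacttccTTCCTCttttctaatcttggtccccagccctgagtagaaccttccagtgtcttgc
Trem1 (chr17:48232489-48232738, plus strand): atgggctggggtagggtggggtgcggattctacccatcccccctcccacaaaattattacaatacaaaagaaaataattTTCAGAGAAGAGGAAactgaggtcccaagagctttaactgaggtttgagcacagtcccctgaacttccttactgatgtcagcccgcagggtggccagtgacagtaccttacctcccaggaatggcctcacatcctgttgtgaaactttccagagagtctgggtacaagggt
Trem2 (chr17:48346151-48346400, plus strand): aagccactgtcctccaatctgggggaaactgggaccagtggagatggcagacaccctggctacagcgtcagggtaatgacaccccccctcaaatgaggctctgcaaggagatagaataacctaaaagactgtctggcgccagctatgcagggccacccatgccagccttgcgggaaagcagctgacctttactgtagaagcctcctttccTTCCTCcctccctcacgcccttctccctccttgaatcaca
The first base of the TTCNNNGAA match is 109 bases upstream of the start in Fcgr1 and 171 bases upstream in Trem1. The capitals TTCCTC in Fcgr1 and Trem2 are GAGGAA on the other strand. A match is a description of the letters and not a site or a cause. The windows held 1 CpG in Fcgr1 and in Fcgr4, 2 in Trem1, 3 or 4 in Fcgr3 (which has 2 listed starts), 4 in Trem2, and 5 in Fcgr2b and in Fcer1g. The median over all promoters was 6. At most 1 CpG was found in 18.8% of all promoters, and at most 5 in 49.6%.

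Among the ligand-binding activating receptors, Fcgr1 was far lower in the Tet1/Tet2 siRNA-treated BMMSCs, Fcgr3 was moderately higher, and Fcgr4 was lower on average with overlapping groups. Fcgr1, the high-affinity receptor for IgG, was 116, 113 and 97.6 RPKM in the 3 control libraries and 27.0, 30.7 and 25.9 RPKM in the 3 siRNA libraries. The groups were far apart, with 109 ± 10.0 against 27.8 ± 2.53 RPKM (SD, n = 3), which is 3.92-fold lower. On the log2(RPKM + 1) scale the difference was -1.93 (SE 0.09). Fcgr1 went from rank 634 to rank 2767 among the 13266 genes.

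Fcgr3, the low-affinity activating receptor that binds immune complexes, was 336, 322 and 224 RPKM in the controls and 405, 396 and 358 RPKM after siRNA treatment. The groups did not overlap, but control replicate 3 lay well under the other controls. The means were 294 ± 61.3 and 386 ± 25.0 RPKM (SD, n = 3), a ratio of 1.31 and a log2 difference of 0.41 (SE 0.15), which was 0.23 without control replicate 3. Fcgr4, an activating receptor of intermediate affinity, was 79.0, 74.7 and 55.8 RPKM in the controls and 60.1, 60.8 and 46.9 RPKM in the siRNA group. Here the groups overlapped through control replicate 3 alone. The log2 difference was -0.31 (SE 0.14), and it was -0.46 without control replicate 3 and -0.19 without siRNA replicate 3. Within each replicate number the siRNA library was the lower one, and with the replicate number as a block the SE was 0.06. The groups did not overlap when libraries were scaled to the same sum.

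The inhibitory receptor was higher. Fcgr2b was 38.2, 33.3 and 28.1 RPKM in the controls and 48.7, 49.8 and 48.0 RPKM in the siRNA libraries, which lay close together above every control. The means were 33.2 ± 5.05 and 48.9 ± 0.897 RPKM (SD, n = 3), a ratio of 1.47 and a log2 difference of 0.55 (SE 0.10). Fcgr2b shares 155 exon bases with the antisense gene Gm38204, which was not analysed here, and the sources do not say that counting used strand. Of the 1733 words of 100 bases in Fcgr3 transcripts, 44 also occur in Fcgr2b (2.54%), and Fcgr1 and Fcgr4 shared none with another gene.

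**Figure D1:**
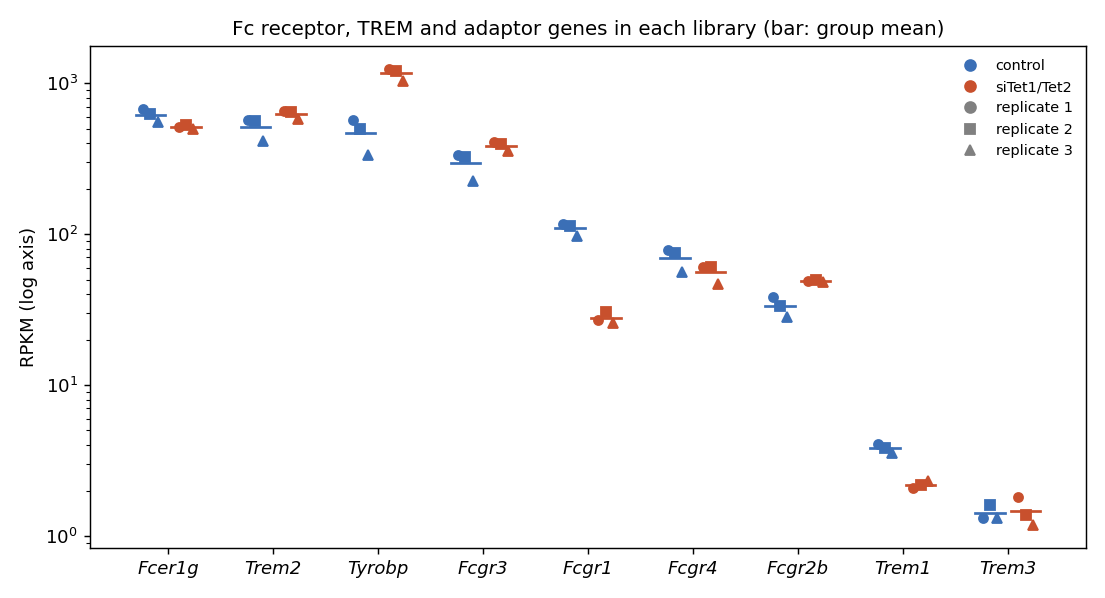
RPKM (log axis) of the 9 genes in each control (blue) and siTet1/Tet2 (red) library, with a symbol for each replicate number and a bar at the group mean, ordered by the control mean. Fcgr1 sits between 97.6 and 116 RPKM in the controls and between 25.9 and 30.7 RPKM after siRNA treatment, whereas Tyrobp sits between 334 and 568 RPKM in the controls and between 1039 and 1246 RPKM after it.

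The composition of the Fcγ receptor mRNAs differed between the groups in every library. Of the summed RPKM of the 4 genes, Fcgr1 made up 20.4%, 20.9% and 24.1% in the controls and 4.99%, 5.71% and 5.41% in the siRNA libraries. Fcgr3 made up 57.8% ± 2.28 of the sum in the controls and 74.4% ± 0.638 after siRNA treatment (SD, n = 3). The shares are parts of the same sum, so a lower share of Fcgr1 by itself raises the others. Fcgr2b went from 6.59% ± 0.415 to 9.44% ± 0.531 and Fcgr4 from 13.8% ± 0.0661 to 10.8% ± 0.818. In these shares, unlike in the levels, Fcgr4 was separated between the groups. The 3 activating receptors together stood at 14.2 ± 0.981 times the RPKM of Fcgr2b in the controls and at 9.61 ± 0.583 times in the siRNA group. Fcgr3 and Fcgr2b kept a similar ratio, 8.80 ± 0.854 and 7.90 ± 0.430, with overlapping groups.

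**Figure D2:**
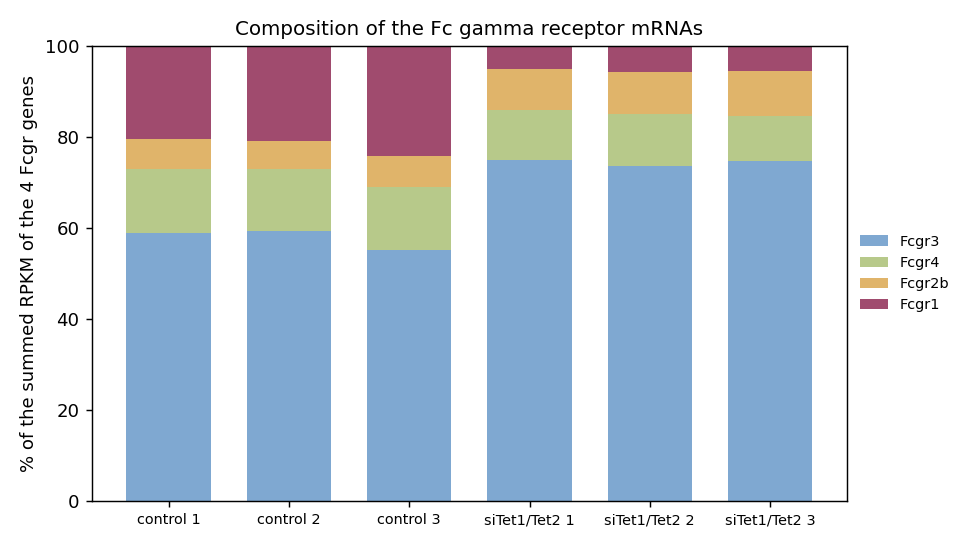
Share of each Fcγ receptor gene in the summed RPKM of the 4 genes (%, stacked bars to 100%), one bar per library. The Fcgr1 part is between 20.4% and 24.1% in the controls and between 4.99% and 5.71% in the siRNA libraries, and the Fcgr3 part is the largest in all 6.

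The 2 ITAM adaptors differed in opposite directions. Fcer1g, the FcRγ chain that activating Fcγ receptors need for surface display and signalling, was 674, 627 and 554 RPKM in the controls and 515, 529 and 494 RPKM in the siRNA libraries. The siRNA libraries were all lower, by a small margin under control replicate 3, and with median ratio scaling the groups overlapped. The means were 618 ± 60.4 and 513 ± 17.5 RPKM (SD, n = 3), which is 1.21-fold lower, with a log2 difference of -0.27 (SE 0.09). Tyrobp, the DAP12 adaptor of the TREM receptors, was 568, 495 and 334 RPKM in the controls and 1246, 1207 and 1039 RPKM after siRNA treatment. Every siRNA library was far above every control, and control replicate 3 was again the lowest. The means were 466 ± 119 and 1164 ± 110 RPKM (SD, n = 3), a ratio of 2.50. The log2 difference was 1.35 (SE 0.18), and 1.13 without control replicate 3.

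Tyrobp was the highest of the 9 genes in the siRNA group and the third in the controls. In the controls Fcer1g had the highest mean, followed by Trem2, Tyrobp and Fcgr3, and each of these neighbours overlapped the next in range. In the siRNA group the order was Tyrobp, Trem2, Fcer1g and Fcgr3, with no overlap between neighbours. The order below Fcgr3 was Fcgr1, Fcgr4, Fcgr2b, Trem1 and Trem3 in the controls, with ranges that did not overlap. In the siRNA group it was Fcgr4, Fcgr2b, Fcgr1, Trem1 and Trem3, where only Fcgr4 and Fcgr2b overlapped. Among all genes tested, Tyrobp went from rank 83 to rank 31 and Fcer1g from rank 54 to rank 72.

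Ratios taken within a library do not depend on how libraries are scaled to each other. Fcgr1 stood at 0.173, 0.181 and 0.176 times the RPKM of Fcer1g, its own signalling chain, in the controls, the narrowest spread of the ratios plotted, and at 0.0524, 0.0580 and 0.0523 times in the siRNA libraries. This ratio was 3.26-fold lower. Tyrobp over Fcer1g was 0.842, 0.790 and 0.603 in the controls and 2.42, 2.28 and 2.10 in the siRNA libraries, so the more abundant adaptor was FcRγ in each control and DAP12 in each siRNA library. The ratio of Fcgr1 to Tyrobp was 0.205, 0.229 and 0.292 in the controls and 0.0216, 0.0254 and 0.0249 after siRNA treatment, 10.1-fold lower. Fcgr4 over Fcgr2b went from 2.10 ± 0.131 to 1.14 ± 0.144 (SD, n = 3). Hcst, the neighbour of Tyrobp, was 10.4 ± 1.95 and 12.8 ± 1.33 RPKM, a log2 difference of 0.29 that did not pass (adjusted p = 0.116, limma) but did with quantile normalization and without control replicate 1 (adjusted p = 0.035 and 0.046). Tyrobp over Hcst went from 44.5 ± 3.39 to 91.9 ± 13.8.

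**Figure D3:**
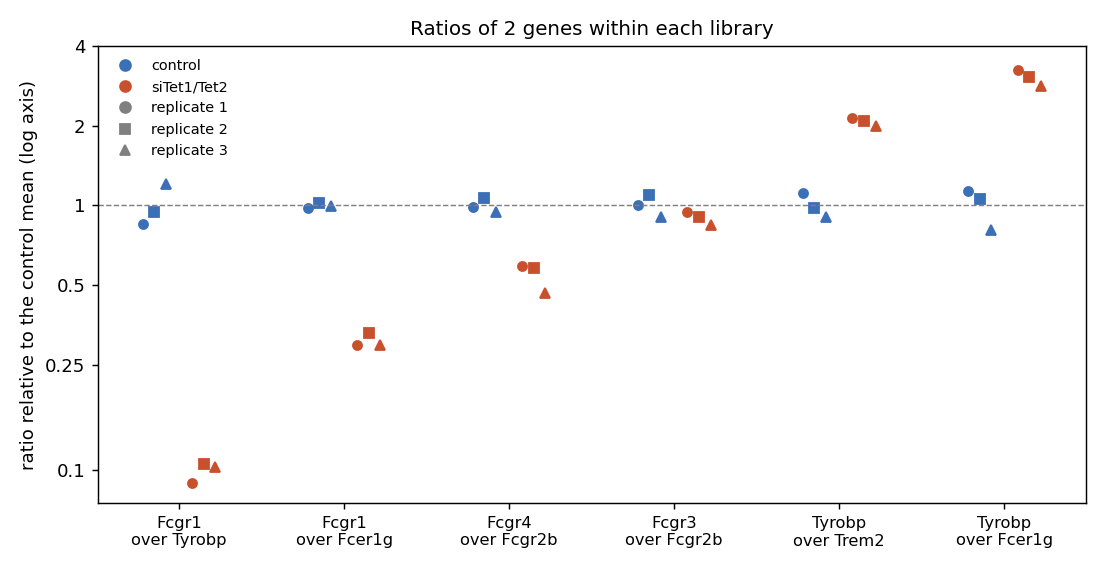
Ratios of RPKM between 2 genes of the same library, each divided by its mean over the 3 controls (log axis), for control (blue) and siTet1/Tet2 (red) libraries. In the siRNA group Fcgr1 over Tyrobp averages 0.099 of its control mean and Fcgr1 over Fcer1g 0.307, Fcgr3 over Fcgr2b overlaps between the groups, and Tyrobp over Fcer1g is 3.04 times its control mean.

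The 3 TREM receptors did not move together. Trem1, an amplifier of inflammatory signalling in neutrophils and monocytes, was low, with 4.08, 3.84 and 3.54 RPKM in the controls and 2.07, 2.17 and 2.30 RPKM in the siRNA libraries. The groups were clearly separated. The means were 3.82 ± 0.267 and 2.18 ± 0.116 RPKM (SD, n = 3), which is 1.75-fold lower. The log2 difference was -0.60 (SE 0.09) with the pseudocount of 1, which matters at this level, and -0.81 with a pseudocount of 0.01. An estimated 238 to 459 reads lay behind each of these values.

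Trem2, a lipid and apolipoprotein receptor of macrophages, microglia and osteoclasts, was over 100 times more abundant than Trem1. It was 569, 564 and 412 RPKM in the controls and 653, 648 and 581 RPKM in the siRNA libraries, and the lowest siRNA library was just above the highest control. The means were 515 ± 89.4 and 627 ± 40.0 RPKM (SD, n = 3), a ratio of 1.22 and a log2 difference of 0.30 (SE 0.13), which was 0.14 without control replicate 3. The difference of Tyrobp, its adaptor, was larger. Tyrobp over Trem2 was 0.895 ± 0.0940 in the controls and 1.85 ± 0.0614 after siRNA treatment, and Trem2 over Trem1 went from 134 ± 16.0 to 289 ± 32.4.

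Trem3, a DAP12-coupled receptor of mouse macrophages, was 1.31, 1.60 and 1.32 RPKM in the controls and 1.82, 1.37 and 1.19 RPKM in the siRNA libraries, with overlapping groups. Its log2 difference was 0.02 (SE 0.11), and only an estimated 42 to 69 reads lay behind each value. Further along the same stretch of chromosome 17, Treml4 went from 1.29 ± 0.367 to 5.70 ± 0.289 RPKM, a log2 difference of 1.56 (adjusted p = 4.3e-05, limma). Treml2 went from 1.69 ± 0.324 to 0.158 ± 0.0456 RPKM, a log2 difference of -1.21 (adjusted p = 4.1e-05, limma). Neighbouring members of the TREM cluster thus included genes that were higher, genes that were lower and a gene with no separation, and the Fcγ receptors on chromosome 1 likewise did not move together.

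In all, 3 of the 9 genes (Fcgr1, Fcer1g and Trem1) had every siRNA library under every control, as had 35.9% of all genes tested, and 4 (Fcgr2b, Fcgr3, Tyrobp and Trem2) had every siRNA library above every control, as had 19.8% of all genes tested. The genes were chosen on this contrast, so nothing is read from these counts. The median log2 difference of the 9 genes was 0.02, and that of all genes tested was -0.09. Control replicate 3 was the lowest control for 8 of the 9 genes and siRNA replicate 3 the lowest siRNA library for 8 of the 9. Replicate 3 also had the lowest summed macrophage markers and the highest summed stromal markers in each group, at 13701 and 1661 RPKM in the controls and at 22862 and 291 RPKM in the siRNA libraries, and the part of these in the spread was not tested. Without control replicate 3, Fcgr4 also lost its overlap, so that 4 genes were lower and 4 higher, as with libraries scaled to the same sum. Fcer1g overlapped under median ratio scaling, which left 2 lower and 4 higher.

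The genes with the most similar profile were different for Fcgr1 and Tyrobp. Likeness was measured as the root mean square distance between centred log2(RPKM + 1) values over the 6 libraries, among the 8317 genes whose mean reached 5 RPKM. The distance includes the difference between the groups, on which the genes were chosen. The neighbours are therefore largely genes with a similar difference and are not independent evidence. The closest to Fcgr1 were Ube2l6 (distance 0.048, 83.5 ± 8.71 to 22.4 ± 2.58 RPKM), Tap1 (0.078, 59.1 ± 0.867 to 14.3 ± 0.805 RPKM) and Ifi35 (0.081, 56.6 ± 6.99 to 15.6 ± 1.06 RPKM). Ube2l6 encodes a conjugating enzyme for ISG15 and Tap1 a peptide transporter for antigen presentation, and all 3 are known interferon-induced genes. The closest to Tyrobp were Creg1 (0.078, 259 ± 47.0 to 650 ± 54.1 RPKM), Lyz1 (0.080, 169 ± 30.6 to 446 ± 49.0 RPKM) and Lyz2 (0.085, 4439 ± 783 to 11321 ± 1444 RPKM). Creg1 encodes a secreted glycoprotein, and Lyz1 and Lyz2 encode lysozymes. The 2 lysozyme genes are near-identical copies, so how reads were divided between them is uncertain.

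A list of interferon response genes was examined beside Fcgr1, a known interferon target. Of 28 genes tested, 28 were lower and none higher in the siRNA group at an adjusted p under 0.05 (limma), beside 29.8% lower and 14.7% higher among all genes. The median log2 difference of the list was -2.74. The fold of Fcgr1 was much smaller than that of Irf7, which went from 272 ± 28.1 to 7.81 ± 4.09 RPKM (log2 difference -5.05, adjusted p = 7.2e-06, limma). Ifit3 and Isg15 were also among the 3 largest decreases of the list, at -4.99 and -4.40. The list was compiled with the lower level of interferon genes in these libraries already known, so its direction is not independent evidence.

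The kinases and linkers shared by both adaptors showed no common direction. Of 40 ITAM signalling genes tested, 7 were lower and 11 higher at an adjusted p under 0.05 (limma), beside 29.8% lower and 14.7% higher among all genes. The median log2 difference of the list was 0.03 against -0.09 over all genes. The split of the list depended on scaling, with 9 lower and 5 higher when libraries were scaled to the same sum, 7 and 16 with median ratio scaling, and 7 and 19 with quantile normalization. Syk, the kinase that docks on phosphorylated ITAMs, rose from 46.8 ± 1.25 to 78.8 ± 1.43 RPKM (log2 difference 0.74, adjusted p = 2.5e-05, limma). The linker Blnk (log2 difference 0.48) and the ITAM receptor Nfam1 (0.56) also rose. Lyn, a Src-family kinase that phosphorylates ITAMs in myeloid cells, was 80.9 ± 2.40 and 75.1 ± 0.192 RPKM and did not pass (log2 difference -0.11, adjusted p = 0.139, limma), but passed with libraries scaled to the same sum and without control replicate 3 (adjusted p = 0.032 and 0.049). The largest falls of the list were in Src (-0.94), Yes1 (-0.79) and the phosphoinositide 3-kinase adaptor Pik3ap1 (-0.72, from 320 ± 6.09 to 193 ± 4.36 RPKM).

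The inhibitory side was also mixed in direction. Of 28 ITIM receptors and inhibitory phosphatases tested, 10 were lower and 9 higher at an adjusted p under 0.05 (limma), beside 29.8% lower and 14.7% higher among all genes. The median log2 difference of the list was -0.01, and the split was 8 against 12 with median ratio scaling. Inpp5d, the SHIP1 phosphatase recruited by FcγRIIb, rose from 72.0 ± 1.34 to 104 ± 10.6 RPKM (log2 difference 0.52, adjusted p = 0.0010, limma). Ptpn6, the SHP-1 phosphatase, rose from 104 ± 9.35 to 125 ± 5.09 RPKM (0.26, adjusted p = 0.025, limma), and was no longer called when control replicate 2, siRNA replicate 1 or siRNA replicate 2 was left out, with an adjusted p of up to 0.101. The ITIM receptors Cd300a (0.96) and Cd22 (0.50) rose, and the receptors Cd72 (-1.33) and Cd300lf (-0.74) and the phosphatase Ptpn22 (-0.74) fell.

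**Figure D4:**
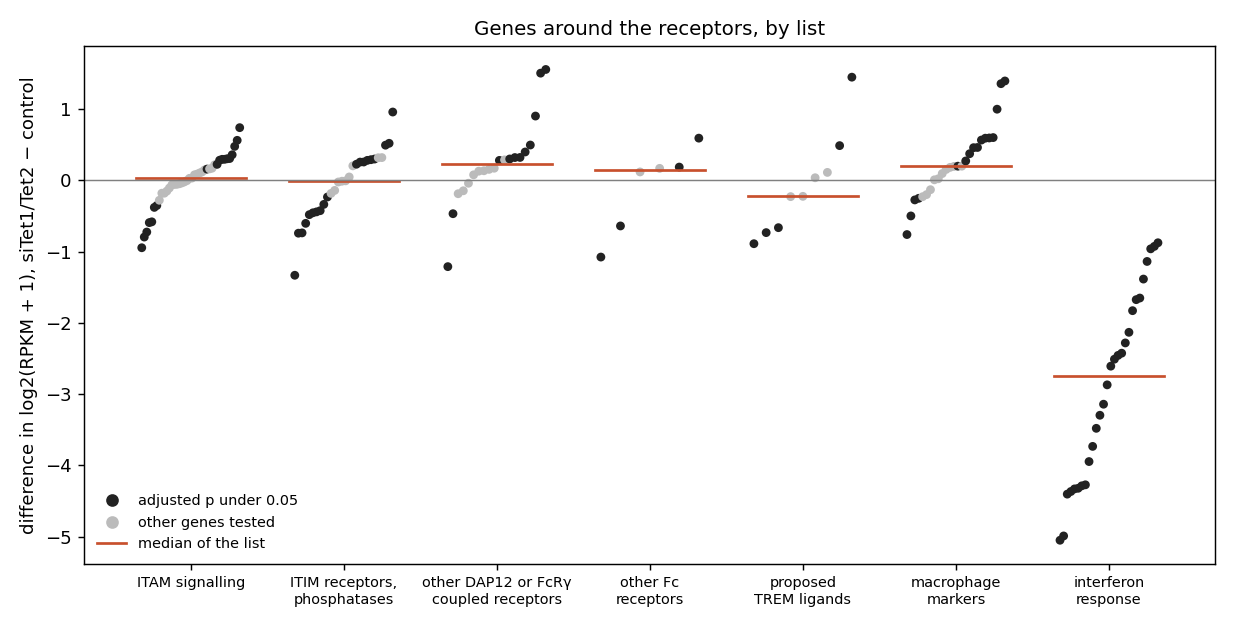
Difference in log2(RPKM + 1), siTet1/Tet2 minus control, for each tested gene of 7 lists, with genes at an adjusted p under 0.05 (limma) in black, other tested genes in grey and the median of each list as a red line. The ITAM and ITIM lists scatter around 0, with medians of 0.03 and -0.01, most of the DAP12-coupled list lies above 0, with a median of 0.23, and all 28 interferon response genes lie below 0.

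Of the other receptors that couple to DAP12 or FcRγ, 20 were tested, and 2 were lower and 9 higher (adjusted p under 0.05, limma). Among all genes 29.8% were lower and 14.7% higher. The median log2 difference of these receptors was 0.23. With libraries scaled to the same sum the split was 2 lower and 7 higher. It was 2 and 11 with median ratio scaling and 2 and 13 with quantile normalization. The largest rises beside Treml4 were in the C-type lectins Clec4n, or Dectin-2, from 28.6 ± 7.35 to 81.3 ± 3.99 RPKM (log2 difference 1.51, adjusted p = 0.00020, limma), and Clec4d, from 254 ± 48.0 to 471 ± 26.5 RPKM (0.90, adjusted p = 0.00096, limma). Both signal with FcRγ, whose own mRNA was not higher. Clec5a, a DAP12-coupled lectin, fell from 9.26 ± 0.427 to 6.44 ± 0.707 RPKM (-0.47, adjusted p = 0.0041, limma). Of these receptors 6 had a mean under 1 RPKM, where the pseudocount shrinks the difference.

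Of the other Fc receptors only 6 could be tested, and 2 were lower and 2 higher (adjusted p under 0.05, limma), beside 29.8% and 14.7% of all genes. Trim21, the cytosolic IgG receptor, fell from 13.8 ± 0.331 to 6.04 ± 0.401 RPKM (log2 difference -1.08, adjusted p = 2.4e-05, limma), and Fcrl1 fell by 0.64 on the log2 scale. Fcgrt, the neonatal Fc receptor that recycles IgG, rose from 41.3 ± 3.31 to 62.8 ± 2.51 RPKM (0.59, adjusted p = 0.00030, limma). Fcrla was called higher at a mean under 0.2 RPKM in both groups, and lost the call in 7 of the 15 alternatives that tested it. Fcer1a and Ms4a2, the IgE receptor chains of mast cells that also use FcRγ, were at 0.001 RPKM in each of the 6 libraries, the lowest value that the table lists.

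Proposed ligands of Trem1 and Trem2 were also measured. Apoe, which encodes an apolipoprotein that binds Trem2, rose from 3717 ± 358 to 10126 ± 254 RPKM (log2 difference 1.45, adjusted p = 0.00020, limma), more than Trem2 itself, although quantile normalization reduced the difference to 0.26. Of the 9 ligand genes tested, Sema6d (0.49) also rose, and Il34 (-0.89), Hspd1 (-0.73) and Clu (-0.66) fell. Pglyrp1, a ligand of Trem1, was near the lowest listed value, at 0.014 ± 0.022 and 0.070 ± 0.12 RPKM. Of the shedding genes, Adam10, a protease that cleaves Trem2, rose from 59.6 ± 4.19 to 74.0 ± 4.03 RPKM (log2 difference 0.31, adjusted p = 0.0088, limma), and missed the threshold only when libraries were scaled to the same sum (adjusted p = 0.056). Its relative Adam17 was called higher by 0.19 (adjusted p = 0.023, limma), and lost the call in 5 of 17 alternatives. Rhbdf1, a cofactor of Adam17, fell by 0.59 on the log2 scale.

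More of the macrophage markers were higher than lower. Of 26 tested, 4 were lower and 12 higher (adjusted p under 0.05, limma), beside the 29.8% lower and 14.7% higher among all genes, and 19 of the 26 differences were above 0. The median log2 difference was 0.20 against -0.09 over all genes, and the split was 6 against 11 when libraries were scaled to the same sum. Ptprc, the leukocyte antigen CD45, was 52.6 ± 4.57 and 53.0 ± 6.04 RPKM, and Spi1, which encodes PU.1, was 196 ± 12.8 and 209 ± 3.83 RPKM, with log2 differences of 0.01 and 0.10 that did not pass (adjusted p = 0.949 and 0.275, limma). Adgre1, listed as Emr1, was 305 ± 21.9 and 350 ± 13.1 RPKM and did not pass (adjusted p = 0.062, limma), but passed with median ratio scaling, quantile normalization and the replicate block (adjusted p = 0.017, 0.0044 and 0.036). Csf1r rose from 499 ± 20.5 to 604 ± 22.4 RPKM (0.27, adjusted p = 0.017, limma), with the call lost in 3 of 17 alternatives. Marco (1.40), Lyz2 (1.36) and Mertk (1.00) rose most, although Lyz2 differed by only 0.06 and was not called with quantile normalization (adjusted p = 0.455). In the same list Msr1 (-0.76), Aif1 (-0.50) and Mrc1 (-0.27) fell, the last with its call lost in 7 of 17 alternatives. When each library was centred on the median of 24 macrophage markers, Fcgr1 differed by -1.95 and Tyrobp by 1.33. This centring moved the median of all genes only from -0.09 to -0.10, so it could change little for any gene. The part of macrophages in the 2 differences was not tested by it.

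Markers of other cells were measured as well. Of 14 neutrophil markers 4 could be tested. The list summed to between 13.1 and 14.9 RPKM in the controls and between 43.2 and 57.2 RPKM in the siRNA libraries. Mmp8 (log2 difference 2.32), S100a8 (2.18) and Csf3r (1.01) were higher and Camp (-1.21) was lower, each at an adjusted p under 0.05 (limma). S100a9 and Retnlg stood at the lowest listed value in all libraries. Ly6g, Mpo and Ngp lay under 0.1 RPKM in both groups. Of 12 NK and T cell markers 5 stood at the lowest listed value in all libraries and only Cd4 could be tested. Mast cell and basophil markers summed to between 4.37 and 5.23 RPKM in the controls and between 1.74 and 2.41 RPKM in the siRNA group, and B cell markers to between 5.13 and 6.94 and between 1.84 and 3.03 RPKM. Dendritic cell markers summed to between 414 and 468 RPKM in the controls and between 135 and 162 RPKM after siRNA treatment, but nearly all of this was Bst2, which is also on the interferon list, and without it the sums were 7.24 to 9.09 and 9.49 to 10.6 RPKM. Osteoclast markers summed to between 98.2 and 101 RPKM in the controls and between 177 and 194 RPKM in the siRNA libraries. Atp6v0d2, from 57.6 ± 1.83 to 139 ± 10.9 RPKM, carried most of that difference. Acp5 and Ctsk were also higher (adjusted p = 0.00044 and 0.0092, limma). Tnfrsf11a was lower, from 27.0 ± 2.52 to 21.3 ± 1.75 RPKM (adjusted p = 0.016, limma). This call was lost in 3 of 17 alternatives. Mmp9 and Ocstamp had lower means but did not pass (adjusted p = 0.112 and 0.055, limma). Endothelial and platelet markers summed to between 185 and 288 RPKM and between 547 and 653 RPKM. Nearly all of the last sum was the platelet gene Pf4, without which it was 3.74 to 4.77 and 6.90 to 7.30 RPKM. The endothelial gene Kdr fell from 1.58 ± 0.201 to 0.604 ± 0.0542 RPKM (log2 difference -0.69, adjusted p = 0.00031, limma). On the same list Vwf rose from 1.93 ± 0.199 to 6.10 ± 0.157 RPKM (1.28, adjusted p = 2.0e-05, limma). Cdh5 did not pass (-0.22, adjusted p = 0.061, limma). The part of these cells in the levels of the 9 genes was not tested.

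**Figure D5:**
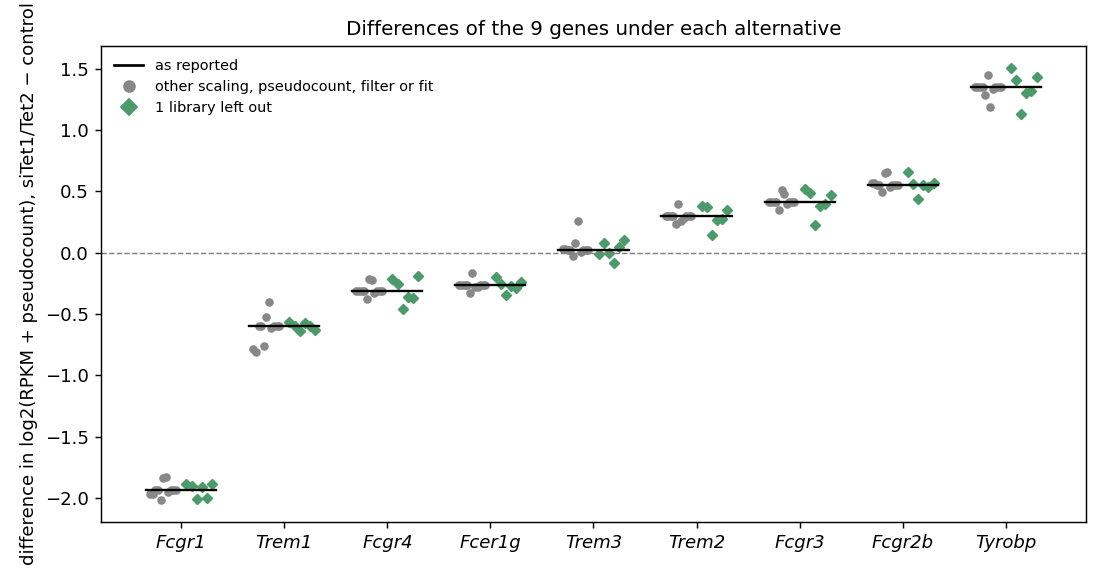
Difference in log2(RPKM + pseudocount), siTet1/Tet2 minus control, for each of the 9 genes as reported (black line), under other scalings, pseudocounts, filters and fits (grey points) and with 1 library left out (green diamonds). Fcgr1 stays between -2.02 and -1.83 and Tyrobp between 1.13 and 1.51, and only Trem3 changes sign.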

How the data were processed

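The authors prepared libraries of total RNA with a NEBNext Ultra kit, sequenced them as paired-end reads, trimmed adaptors, mapped them to GRCm38 and estimated abundance with DNASTAR Lasergene. They deposited 1 table of linear RPKM values, a unit that the methods call FPKM, and the authors' p-value for each row, which was not used. Which annotation was used, whether counting used strand and how multiply matching reads were treated is not given in the sources used here.

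For the 37 symbols listed more than once, only the row of the highest mean entered the analysis. The 13266 genes whose mean reached 0.1 RPKM were compared as log2(RPKM + 1) with a two-sided moderated test (limma 3.58.1, trended eBayes, under R 4.3.3). Adjusted p-values are Benjamini-Hochberg values over all of them. Folds on this scale understate the change of low genes. The fit was tested on simulated data. The smallest exact permutation p for a single gene is 0.1 with 3 libraries per group. The 9 genes, the lists and the motifs were chosen with earlier results of these data known. Named beside the 9 genes were Tet genes and fixed examples of each pathway and marker. Also named were the up to 3 largest rises and falls at an adjusted p under 0.05 of the pathway, ligand, interferon and macrophage lists. From the other marker lists came Bst2, Cd4, Kdr, Pf4 and Vwf and the called neutrophil and osteoclast markers. Genes of those lists that did not pass or were not tested were named after their values were seen. B430306N03Rik and Gm38204 were named for their position only, and Thy1, Lepr and Lum after their values were seen, for being under 0.1 RPKM.

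The table gives no read totals. Depth was taken as the total at which low values of genes with 1 transcript come closest to whole reads, and 50.1% to 58.2% of them lay within 0.1 of a whole number (20% by chance at a fixed depth), so no count test was run and no counting interval is given. The labels share replicate numbers between the groups. Deviations from the group means correlated at 0.149, 0.117 and 0.462 for replicates 1, 2 and 3, all over 0.1, so a further fit paired them, although control replicate 1 with siRNA replicate 2 reached 0.332 and no source says what a number stands for. The other alternatives were pseudocounts of 0.1 and 0.01, no filter, a minimum mean of 1 RPKM, 4 other scalings, eBayes without trend, the sum of rows with the same symbol, and each library left out in turn. Positions are from GENCODE M21. Text and figures were made with Python 3.11.15, pandas 2.3.3 and matplotlib 3.10.9. Some genes of the lists are not reported here.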

Additional observations from a re-analysis of the deposited data

How the results depend on the processing

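The number of genes called in both directions together stayed within 1.5 times its reported value under the 17 alternatives for all genes, the ITAM, ITIM, coupled receptor, interferon and macrophage lists and the separation of the 9 genes. The counts in a single direction moved further, as given with the results, and the other lists were not recounted. With 1 library left out, which also changed slightly how many genes were tested, 4420 to 6150 genes were called. The replicate block gave 6716 called genes against 5905, 19 of the ITAM signalling genes against 18 and 23 of the ITIM genes and phosphatases against 19, and 19 of the macrophage markers against 16, with 11 of the other coupled receptors and 28 of the interferon genes as before. Among the 9 genes, 8 kept the sign of their difference in all alternatives, and Trem3 changed sign in 4 of 17 (from -0.08 to 0.26). The difference of Trem1 was -0.78 and -0.81 with pseudocounts of 0.1 and 0.01, -0.76 with equal sums and -0.40 with quantile normalization. The highest genes are limited by quantile normalization, which moved Lyz2 from 1.36 to 0.06 (no longer called) and the median of all genes from -0.09 to 0.06. The lowest genes are limited by the pseudocount of 1. With 0.01 the difference of Treml2 was -3.36. Values of Trem3 rest on few reads, an estimated 42 to 69 per library, against 238 to 459 for Trem1. Values of genes with near-identical copies depend on how reads were assigned.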
